A study of Mus musculus with 8 samples.

Results

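The AP-1 family of transcription factors was examined in mouse splenic CD8+ T cells cultured with diisopropylamine dichloroacetate (DADA) or with its solvent DMSO. Its members were taken by gene symbol: *Jun*, *Junb*, *Jund*, *Fos*, *Fosb*, *Fosl1*, *Fosl2*, *Batf*, *Batf3* and *Maf*, which are 10 of the 22520 rows of the deposited expression table. DADA is an inhibitor of pyruvate dehydrogenase kinase, the enzyme that shuts the entry of pyruvate into the mitochondrial citric acid cycle. CD8+ T cells purified from spleens by magnetic negative selection were stimulated with anti-CD3 and anti-CD28 antibodies and IL-2 throughout the culture, which the study uses to drive cells toward exhaustion, and 40 µM DADA or an equal volume of DMSO was present from day 3 until harvest on day 6. Bulk RNA-seq libraries were made for 4 DMSO and 4 DADA cultures, and both groups received the same antibodies and IL-2. The labels carry "control" and "model" in a genotype field, but no allele is named for either group. The paper states that the splenic cells of this stimulation assay came from wild-type mice. The methods list mice of 6 to 8 weeks, C57BL/6J among other strains, and tie no strain to these libraries. The submitters call the 4 libraries of each group biological replicates and do not say whether they came from separate animals, so p-values here measure the spread between these cultures.

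AP-1 factors bind DNA as pairs of proteins joined through a leucine zipper. JUN proteins can pair with each other or with FOS proteins, whereas FOS proteins need a JUN partner, and BATF and BATF3 pair with JUN proteins but lack the long activation domains of FOS. In T cells the antigen receptor and CD28 induce FOS and JUN through MAP kinases, and AP-1 then acts with NFAT on cytokine genes, while BATF and JUN act with IRF4 or IRF8 on composite sites. JUN overexpression is known to counter exhaustion in engineered T cells, and BATF and NFAT without AP-1 have been linked to exhaustion programs. MAF is a larger relative of the same leucine zipper superfamily that is known to activate *Il10* and *Il21*.

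Between 438299 and 456939 FPKM were listed per library, where FPKM is the number of fragments of a gene corrected for transcript length and sequencing depth. The steps between low values placed the depth at 13660000 to 16420000 mapped fragments under DMSO and 15100000 to 18520000 under DADA, which is an estimate. The 5 markers of CD8 T cells that the table lists summed to between 674 and 680.1 FPKM under DMSO and to between 776 and 805 FPKM under DADA. Markers of CD4 T cells, macrophages, neutrophils and erythroid cells did not reach 1 FPKM in any library, and 1 marker each of B cells (*Cd79b*) and NK cells (*Klre1*) did. *Batf3* is also a factor of dendritic cells, and *Maf* of macrophages. The 6 dendritic cell markers summed to 3.76 to 4.82 FPKM under DMSO and to 1.96 to 2.53 FPKM under DADA, nearly all of it *Zbtb46*, and *Clec9a* was at 0 in every library. The 7 macrophage and monocyte markers summed to at most 0.183 FPKM, with *Csf1r*, *Adgre1*, *C1qa* and *C1qb* at 0. In bulk libraries, a lower share of cells expressing a gene and less RNA per cell cannot be told apart.

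Most AP-1 transcripts were higher in DADA-treated CD8+ T cells, and *Fosl1* was lower. Of the 10 genes, 8 reached 1 FPKM in at least 4 libraries and were tested with limma on log2(FPKM + 1) together with 10666 genes in all. Of these 8, 7 rose and 1 fell at an adjusted p-value under 0.05. The change in expression was broad in this experiment, with 66.2% of all genes tested past the same threshold, 30.9% higher and 35.3% lower, so 7 higher of 8 stands beside a background of 30.9%. The median log2 fold change was 0.67 over the 8 AP-1 genes and -0.02 over all genes tested. *Fosb* and *Maf* stayed below 1 FPKM in every library and were also higher under DADA. For all 10 genes the DMSO and DADA libraries did not overlap (two-sided exact permutation test, p = 0.0286 for each, the smallest that 4 against 4 libraries can give), which held for 60.6% of the genes tested, 28.4% higher and 32.2% lower under DADA. The plot of each gene by library shows these values.

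**Figure D1:**
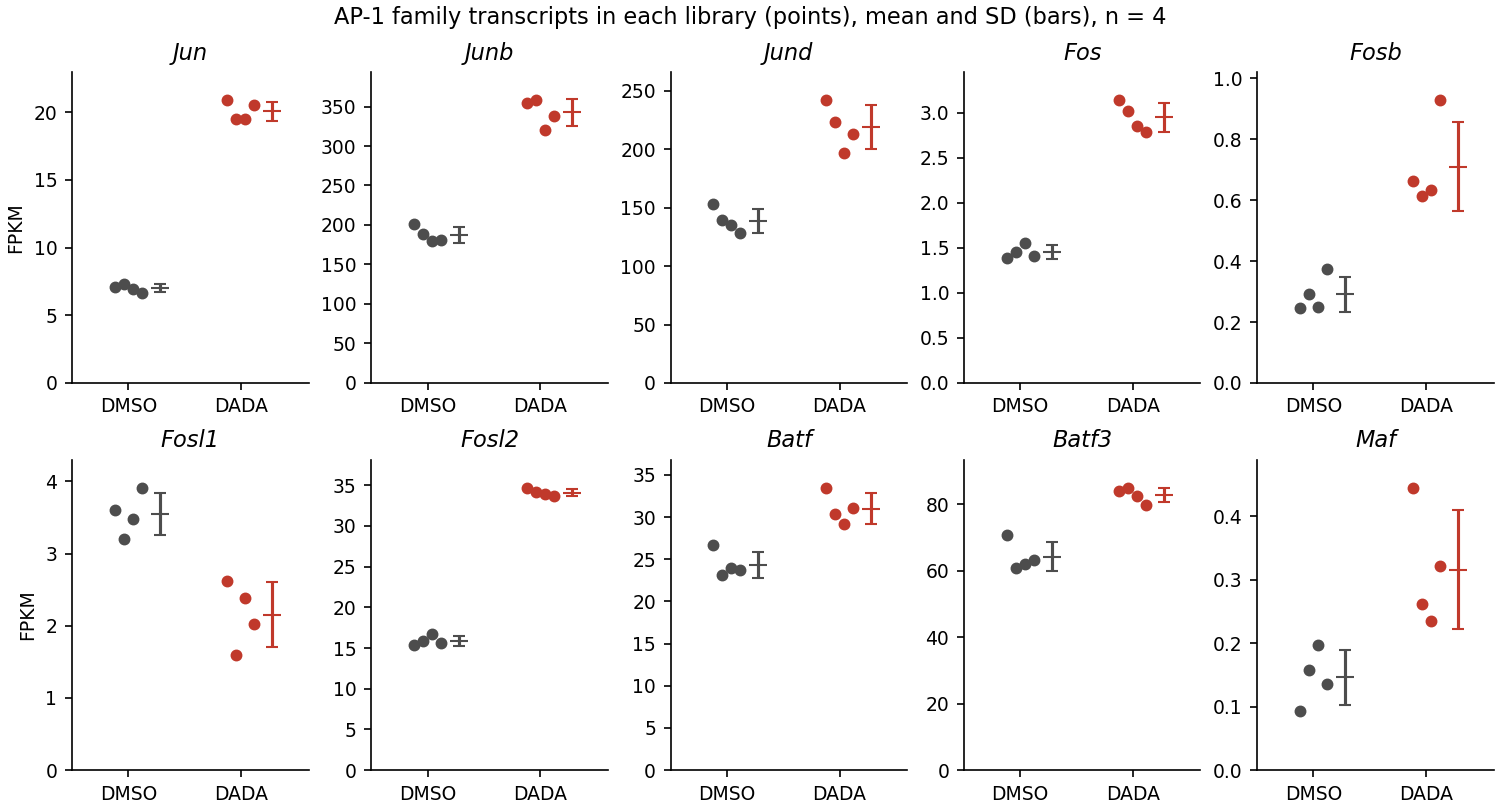
FPKM of the 10 AP-1 family genes (vertical axes, each from 0) in the 4 DMSO and 4 DADA libraries, with 1 point per library and the mean and SD beside the points. The groups are apart in every panel, *Fosl1* is the gene that is lower under DADA, and *Junb* reaches 358 FPKM while *Fosb* and *Maf* stay below 1 FPKM.

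The start regions of several of these genes hold the letters that AP-1 and CREB/ATF proteins are known to read. RefSeq start regions (GRCm38.p6) were at hand for 8 of the 10 genes, and the 250 bases before the start were searched on both strands. The AP-1 site TGANTCA was in none of the 8, against 6.75% of all 32851 start regions. TGACNTCA, the wider form read by JUN with ATF2, was in 1 of the 8 (*Jun*), against 7.49% of all. TGACG, the core of the CREB/ATF site, which overlaps TGACNTCA where N is G, was in 4 of the 8 (*Fos*, *Fosb*, *Junb* and *Batf*), against 17.8% of all. The CArG box bound by SRF was in none within this window, against 1.47% of all. A match is a run of letters, not a measured binding site, and no binding was measured here. The 5 stretches below are shown because they hold these letters. Their genes were all higher under DADA, but so were 9 of all 10 members when fitted without the filter. A link between the letters and the rise was not tested. Each is 100 bases of the upstream region on the gene's own strand, 5′ to 3′, and the capitals mark TGACNTCA in *Jun* and TGACG in the others.
Jun (chr4:95052223-95052322, minus strand): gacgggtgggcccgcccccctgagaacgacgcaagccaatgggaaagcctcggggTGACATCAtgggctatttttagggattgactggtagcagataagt
Fos (chr12:85473746-85473845, plus strand): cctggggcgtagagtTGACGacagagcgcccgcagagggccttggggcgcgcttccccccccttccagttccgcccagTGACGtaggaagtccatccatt
Fosb (chr7:19310046-19310145, minus strand): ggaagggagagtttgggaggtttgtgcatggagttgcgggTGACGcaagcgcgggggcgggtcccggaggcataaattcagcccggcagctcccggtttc
Junb (chr8:84978770-84978869, minus strand): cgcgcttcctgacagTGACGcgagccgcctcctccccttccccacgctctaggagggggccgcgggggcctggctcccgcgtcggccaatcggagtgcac
Batf (chr12:85686607-85686706, plus strand): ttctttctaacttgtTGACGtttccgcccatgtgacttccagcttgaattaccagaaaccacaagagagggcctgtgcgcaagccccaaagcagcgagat
In the *Jun* stretch the 8 letters end 38 bases before the start, and *Fos* holds TGACG at 2 places.

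*Junb* and *Jund* were the most abundant transcripts of the family, *Jun* was far lower, and all 3 rose. *Jun* (ENSMUSG00000052684), the founding member, was at 7.12, 7.33, 6.90 and 6.65 FPKM in DMSO 1 to 4 and at 20.9, 19.5, 19.5 and 20.5 FPKM in DADA 1 to 4. Every DADA library was thus far above every DMSO library, with a gap of 12.1 FPKM between the groups. Its mean was 6.999 ± 0.290 FPKM (SD, n = 4) under DMSO and 20.1 ± 0.702 FPKM (SD, n = 4) under DADA, a ratio of 2.87, and its log2 fold change of 1.40 (standard error, SE, 0.0396, adjusted p = 1.06e-09 by limma) was the largest of the family and rank 191 of 10666 genes. *Junb* (ENSMUSG00000052837), which often restrains JUN activity and pairs with BATF in T cells, was at 201, 188, 179.7 and 180.4 FPKM under DMSO and at 354.9, 358, 321 and 337 FPKM under DADA. The lowest DADA library lay 119.6 FPKM above the highest DMSO library. The log2 fold change of *Junb* was 0.87 (SE 0.0443, adjusted p = 7.76e-08 by limma). *Jund* (ENSMUSG00000071076), the member that is typically present in resting cells, was at 153, 139, 135 and 129 FPKM under DMSO and at 242, 223, 197 and 213 FPKM under DADA. DMSO 1 and DADA 1 were the highest libraries of their groups, and the groups stayed 44.2 FPKM apart. Its log2 fold change was 0.65 (SE 0.0655, adjusted p = 1.16e-05 by limma).

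The 95% intervals of the log2 fold changes were 1.31 to 1.49 for *Jun*, 0.77 to 0.97 for *Junb* and 0.50 to 0.80 for *Jund*. *Junb* was 25.7 to 28.3 times as abundant as *Jun* in the DMSO libraries and 16.4 to 18.4 times in the DADA libraries. *Jun* made up 1.97% to 2.19% of the summed FPKM of the JUN genes under DMSO and 3.24% to 3.63% under DADA. The share of *Jund* went from 41.7% ± 0.697 (SD, n = 4) to 37.6% ± 1.08 (SD, n = 4), with no overlap of the groups. These differences in share were not tested. The longest transcript of each of these 3 genes has a single exon in GENCODE M21. Each gene shares bases with a gene on the opposite strand: *Jun* 7.28% with *Junos*, *Junb* 7.52% with *Prdx2* and *Jund* 52.6% with *Gm11175*. The paper's methods name a kit called Multi-Stranded mRNA-Seq, while the labels name another kit. Whether the fragments were assigned by strand is not given in the sources used here, so fragments of the shared bases cannot be told apart. *Prdx2* was at 84.4 ± 0.712 FPKM (SD, n = 4) under DMSO and 87.5 ± 4.21 FPKM (SD, n = 4) under DADA, and the other partners have no row in the table.

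Among the FOS genes, *Fosl2* carried most of the transcripts. *Fosl2* (ENSMUSG00000029135), which encodes FRA-2, was at 15.4, 15.8, 16.7 and 15.6 FPKM under DMSO and at 34.7, 34.2, 33.9 and 33.6 FPKM under DADA. The 4 DADA libraries differed from each other by little, with a coefficient of variation of 1.31%, the lowest of the 8 genes tested. Its log2 fold change was 1.06 (SE 0.0312, adjusted p = 1.39e-09 by limma). *Fos* (ENSMUSG00000021250), the immediate-early gene whose transcript normally lasts minutes after a stimulus, was low at 1.39, 1.46, 1.56 and 1.42 FPKM under DMSO and at 3.14, 3.03, 2.85 and 2.78 FPKM under DADA. The means, 1.46 ± 0.0742 and 2.95 ± 0.162 FPKM (SD, n = 4 each), stood in a ratio of 2.03. Its log2 fold change of 0.69 (SE 0.0541, adjusted p = 1.88e-06 by limma) is on a scale with 1 FPKM added, which understates the change of low genes, and a pseudocount of 0.1 gave 0.97.

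*Fosl1* (ENSMUSG00000024912), which encodes FRA-1, was the gene of the family that fell. It was at 3.60, 3.20, 3.48 and 3.91 FPKM under DMSO and at 2.62, 1.59, 2.38 and 2.02 FPKM under DADA. All DADA libraries were below all DMSO libraries, but they were spread, with a coefficient of variation of 20.8%, the highest of the 8 genes tested. Its log2 fold change was -0.54 (SE 0.1004, 95% interval -0.76 to -0.31, adjusted p = 0.000904 by limma), and 4.82% of all genes tested fell at least as much. In GENCODE M21, 57.2% of the exonic bases of *Fosl1* are shared with *Ccdc85b* on the opposite strand, so its level is uncertain. *Ccdc85b* itself was at 3.12 ± 0.361 FPKM (SD, n = 4) under DMSO and 3.45 ± 0.223 FPKM (SD, n = 4) under DADA, where the libraries overlapped (log2 fold change 0.11, adjusted p = 0.177 by limma).

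*Fosb* (ENSMUSG00000003545), another immediate-early gene, was at 0.247, 0.293, 0.251 and 0.373 FPKM under DMSO and at 0.662, 0.614, 0.635 and 0.927 FPKM under DADA. Fitted without the filter, over 16167 genes of which 48.7% were called and 24.8% were higher, its log2 fold change was 0.40 (SE 0.0613, adjusted p = 0.000724 by limma). The added 1 FPKM understates this change, since the group means stood in a ratio of 2.44. By the estimated depth and its longest annotated transcript, these values rest on about 13.0 to 65.0 fragments per library.

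Within the FOS family the weights shifted between FRA-1 and FRA-2 transcripts. *Fosl2* made up 74.98% ± 1.39 (SD, n = 4) of the summed FPKM of the 4 FOS genes under DMSO and 85.4% ± 0.968 (SD, n = 4) under DADA, while *Fosl1* went from 16.8% ± 1.406 to 5.39% ± 1.04. The ratio of *Fosl2* to *Fosl1* was 4.27, 4.95, 4.81 and 3.98 in DMSO 1 to 4 and 13.2, 21.5, 14.3 and 16.6 in DADA 1 to 4. The groups were far apart in this ratio, which is a description and was not tested. The shares of *Fos* and *Fosb* overlapped between the groups, at 6.66% to 7.09% and 7.07% to 7.68% for *Fos*. With DMSO *Fosl1* was above *Fos* in every library, and under DADA it was below *Fos* in every library. These comparisons rest on the level of *Fosl1*, which is uncertain through the bases shared with *Ccdc85b*.

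*Batf* and *Batf3* changed least among the genes that passed the filter. *Batf* (ENSMUSG00000034266), needed for effector CD8+ T cell differentiation, was at 26.6, 23.2, 23.9 and 23.8 FPKM under DMSO and at 33.5, 30.3, 29.2 and 31.1 FPKM under DADA. The highest DMSO and the lowest DADA library were only 2.52 FPKM apart. Its log2 fold change was 0.34 (SE 0.0515, adjusted p = 0.000238 by limma), and 15.9% of all genes tested rose at least as much. *Batf3* (ENSMUSG00000026630), known for dendritic cell development and for memory CD8+ T cell survival, was at 70.7, 61.0, 62.1 and 63.1 FPKM under DMSO and at 84.0, 85.0, 82.4 and 79.9 FPKM under DADA. DMSO 1 stood above the other DMSO libraries and still 9.18 FPKM below the lowest DADA library. Its log2 fold change was 0.36 (SE 0.0442, adjusted p = 4.48e-05 by limma). *Batf3* was 2.60 to 2.66 times as abundant as *Batf* under DMSO and 2.51 to 2.83 times under DADA, so this ratio overlapped between the groups. The dendritic cell marker sum given above, nearly all of it *Zbtb46*, was lower under DADA. The other markers were below 1 FPKM in every library and did not move as one. *Xcr1* (means of 0.0224 and 0.0980 FPKM under DMSO and DADA) and *Flt3* (0 and 0.0347 FPKM) were higher. *Itgax* (0.144 and 0.0593 FPKM) and *Siglech* (0.00822 and 0 FPKM) were lower. The part of dendritic cells in the *Batf3* values was not tested.

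*Maf* (ENSMUSG00000055435) was the lowest of the 10 genes in both groups, at 0.0935, 0.158, 0.197 and 0.136 FPKM under DMSO and at 0.445, 0.262, 0.236 and 0.322 FPKM under DADA. The groups were 0.0389 FPKM apart, and the coefficient of variation was 29.5% in each. Fitted without the filter, its log2 fold change was 0.20 (SE 0.0510, adjusted p = 0.0121 by limma), resting on about 8.8 to 49.7 fragments per library. The added 1 FPKM understates the change of *Maf*, whose group means stood in a ratio of 2.16. *Gm15655*, on the opposite strand, shares 5.34% of its exonic bases.

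**Figure D2:**
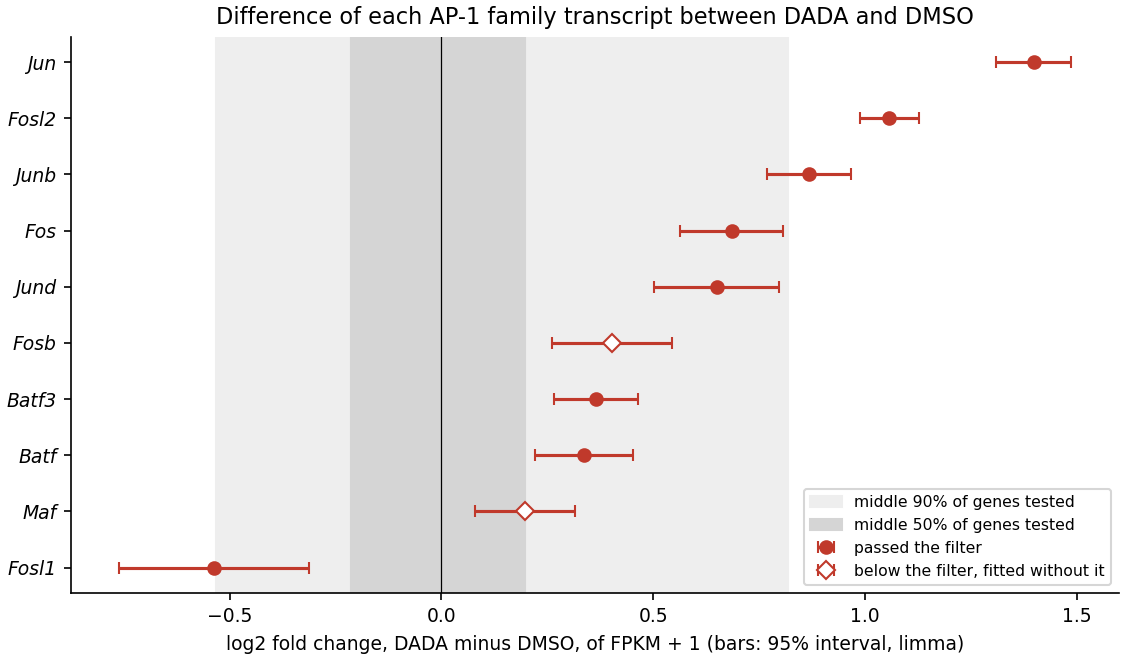
Log2 fold change of each AP-1 family gene, DADA minus DMSO, on the log2(FPKM + 1) scale (horizontal axis) with its 95% interval from limma. Filled points passed the filter and open diamonds (*Fosb*, *Maf*) were fitted without it. The added 1 FPKM understates the change of these 2 low genes. Dark and light grey bands hold the middle 50% and 90% of the genes tested, from -0.21 to 0.20 and from -0.53 to 0.82. *Jun*, *Fosl2* and *Junb* lie above the light band, and *Fosl1*, at -0.54, is the single point below 0 and lies at its lower edge.

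In the order of levels, which FPKM allows since it is scaled to length, *Junb*, *Jund* and *Batf3* were the highest, in that order, in both groups. With DMSO they were followed by *Batf* (24.4 ± 1.55 FPKM, SD, n = 4), *Fosl2* (15.9 ± 0.594), *Jun* (6.999 ± 0.290), *Fosl1* (3.55 ± 0.293), *Fos*, *Fosb* and *Maf*. With DADA, *Fosl2* (34.1 ± 0.447 FPKM, SD, n = 4) passed *Batf* (31.0 ± 1.82), and *Fos* (2.95 ± 0.162) passed *Fosl1* (2.15 ± 0.449). The places of *Fosl1* and *Jund* are uncertain through the bases they share with genes on the opposite strand. No neighbours in either order overlapped between libraries, the closest pair being *Fosl2* and *Batf* under DADA, whose means stood in a ratio of 1.0997. *Junb* was among the abundant transcripts of the cell, with 299 rows of the table above it under DMSO and 165 under DADA.

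The 10 genes summed to 424 to 479 FPKM under DMSO and to 689 to 777 FPKM under DADA, 1.66 times as much on average. The JUN genes made up 75.2% ± 0.707 (SD, n = 4) of this sum under DMSO and 79.0% ± 0.714 (SD, n = 4) under DADA. The share of *Batf* and *Batf3* went from 19.98% ± 0.601 to 15.5% ± 0.482, although both transcripts rose. The FOS genes held 4.79% ± 0.365 and 5.44% ± 0.247, and *Maf* at most 0.0573%. The summed FPKM of the JUN genes was 3.63 to 3.98 times that of *Batf* and *Batf3* under DMSO and 4.81 to 5.26 times under DADA. DADA 1 had the highest value of its group for 7 of the 10 genes. Without it, the 8 genes tested kept their calls, with log2 fold changes of 1.38 for *Jun*, 0.60 for *Jund*, 0.30 for *Batf* and -0.61 for *Fosl1*.

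**Figure D3:**
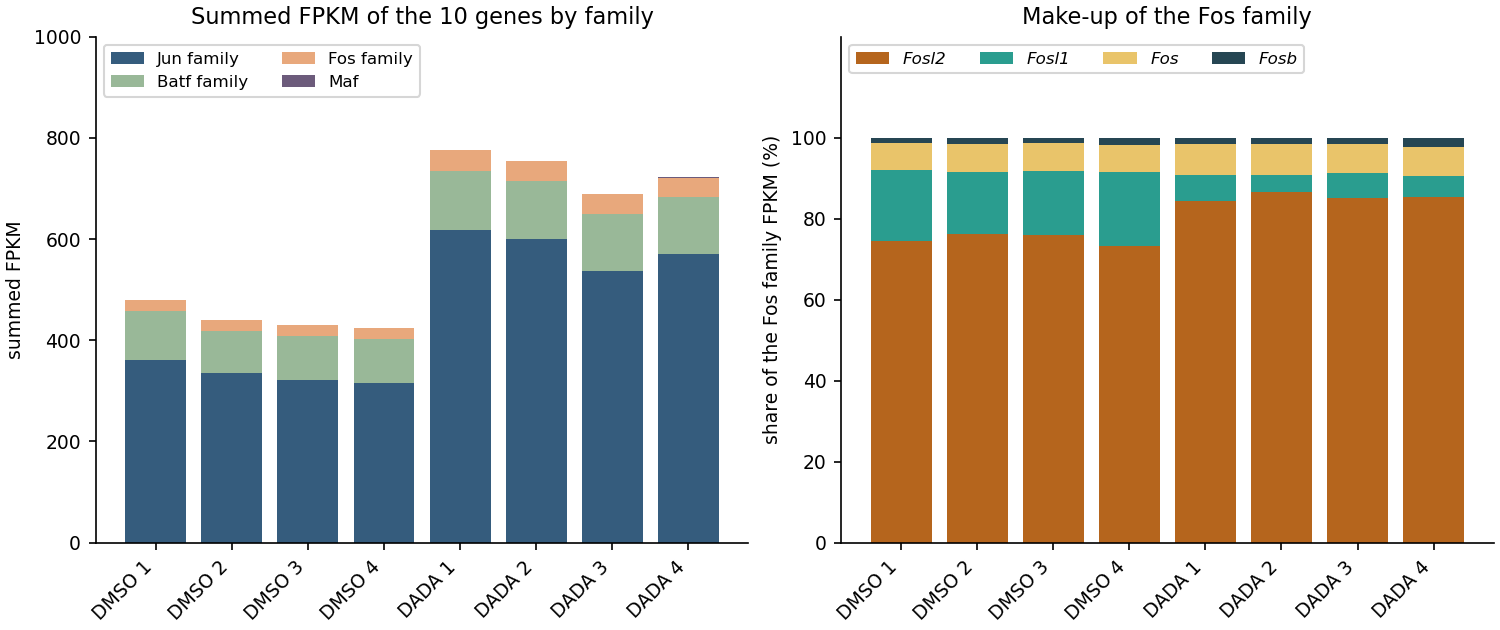
Left, summed FPKM of the 10 genes in each library, stacked by family (vertical axis from 0). Right, the share of each FOS gene in the summed FPKM of the 4 FOS genes, in percent. The stacks reach 424 to 479 FPKM under DMSO and 689 to 777 FPKM under DADA, and *Fosl1* falls from 16.8% to 5.39% of the FOS genes on average.

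The partners of AP-1 on composite sites were measured beside it, and 4 of these 5 genes rose and 1 fell, beside 30.9% of all genes tested called higher and 35.3% lower. *Irf4*, which BATF and JUN proteins recruit, was at 73.2, 73.4, 74.3 and 76.3 FPKM under DMSO and at 138, 140.4, 141 and 142 FPKM under DADA, a log2 fold change of 0.91 (SE 0.0217, adjusted p = 3.05e-10 by limma). *Irf8*, its relative, went from 61.8 ± 1.77 to 90.9 ± 3.38 FPKM (SD, n = 4 each), a log2 fold change of 0.55 (adjusted p = 1.97e-07 by limma). The NFAT genes, whose products carry the calcium signal, did not move as one. *Nfatc1* rose by 0.37 (adjusted p = 7.20e-06 by limma) and *Nfatc2* by 0.27 (adjusted p = 0.000177 by limma) on the log2 scale, whereas *Nfatc3* fell by 0.16, from 31.6 ± 1.27 to 28.05 ± 1.24 FPKM (adjusted p = 0.00420 by limma). *Irf4* was 2.75 to 3.21 times as abundant as *Batf* under DMSO and 4.11 to 4.83 times under DADA.

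Other leucine zipper factors that pair or compete with AP-1 were counted from a list of 12, of which 9 passed the filter. Of these 9, 7 rose and none fell by limma, with a median log2 fold change of 0.19, beside 30.9% of all genes called higher and 35.3% lower. Without DMSO 2 or without DADA 1, 6 were called, all higher. *Atf2* and *Jdp2* were not called, and of them 1, *Atf2*, was lower at an unadjusted p under 0.05 (log2 fold change -0.12, adjusted p = 0.0573 by limma). Without DMSO 1 or without DADA 4, *Atf2* was called lower (adjusted p = 0.0454 and 0.0199 by limma). *Maff*, a small MAF protein without an activation domain, rose most, from 1.47 ± 0.162 to 4.74 ± 0.331 FPKM (SD, n = 4 each; log2 fold change 1.21, adjusted p = 1.18e-07 by limma). *Atf3*, a stress-induced JUN partner, rose from 53.1 ± 1.27 to 73.7 ± 2.07 FPKM (SD, n = 4 each; log2 fold change 0.46, adjusted p = 2.46e-07 by limma). *Jdp2*, a JUN-binding repressor that lies between *Fos* and *Batf* in the annotation, was at 6.13 ± 0.236 FPKM under DMSO and 5.97 ± 0.785 FPKM under DADA, with overlapping libraries (log2 fold change -0.04, adjusted p = 0.664 by limma).

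Of 20 MAP kinases and factors that switch on *Fos* and *Jun*, all of which passed the filter, 7 rose, 6 fell and 7 were not called, with a median log2 fold change of 0.05. These shares are near those of all genes tested, of which 30.9% were higher and 35.3% lower. Both counts moved with the fit. Without DMSO 3, 9 of the 20 were called, 6 higher and 3 lower. With each library rescaled to the same total, 10 were called, 7 higher and 3 lower. Without DMSO 1, without DADA 3 or without DADA 4, 10 were called, 5 of them higher. Without DMSO 2, 13 were called, 8 of them higher. *Map2k1*, which encodes the ERK kinase MEK1, stood out with 33.1 ± 1.02 FPKM under DMSO and 64.7 ± 0.901 FPKM under DADA (SD, n = 4 each; log2 fold change 0.95, adjusted p = 1.13e-09 by limma). *Map2k7*, a kinase of JNK, which phosphorylates JUN, rose by 0.30 on the log2 scale (adjusted p = 0.00198 by limma). *Map2k6* and *Map2k3*, which encode the kinases MKK6 and MKK3 that phosphorylate p38, fell by 0.70 and 0.31 on the log2 scale (adjusted p = 4.08e-05 and 2.32e-05 by limma).

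Among 14 other immediate-early genes, which respond to the same signals as *Fos* and *Jun*, 10 rose, 3 fell and 1 was not called, with a median log2 fold change of 0.41, beside 30.9% of all genes called higher and 35.3% lower. Without DMSO 4, without DADA 2 or without DADA 4, 12 were called, 9 of them higher. *Ier3* rose most, from 11.5 ± 0.706 to 68.3 ± 2.81 FPKM (SD, n = 4 each; log2 fold change 2.47, adjusted p = 5.44e-11 by limma), and *Egr3* rose by 0.81 on the log2 scale. *Nr4a1* and *Nr4a3*, orphan nuclear receptors of the T cell receptor response, fell by 1.15 and 0.25 on the log2 scale (adjusted p = 5.70e-10 and 9.87e-06 by limma). Their relative *Nr4a2* rose by 0.57 (adjusted p = 6.76e-08 by limma), so the NR4A genes did not move as one.

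Of 16 textbook AP-1 target genes, 12 passed the filter, of which 9 rose, 2 fell and 1 was not called, beside 30.9% of all genes called higher and 35.3% lower. *Il10* and *Il2* were below 1 FPKM in every DMSO library and passed only through the DADA libraries, so they had to differ, and this count gives no support for a direction. Fitted without the filter, all 16 were tested, 10 rose and 2 fell, beside 24.8% of all genes called higher and 23.9% lower. *Il10*, an anti-inflammatory cytokine, was at 0.0651, 0.394, 0.168 and 0.368 FPKM under DMSO and at 6.60, 8.19, 8.18 and 7.95 FPKM under DADA. The groups were far apart, with a log2 fold change of 2.81 without the filter (adjusted p = 1.92e-07 by limma) and of 4.62 with a pseudocount of 0.1. *Il3* rose from 1.79 ± 0.459 to 9.38 ± 0.716 FPKM (SD, n = 4 each), a log2 fold change of 1.91. *Csf2*, which encodes GM-CSF and lies next to *Il3*, fell from 83.1 ± 2.07 to 16.4 ± 0.837 FPKM (SD, n = 4 each; log2 fold change -2.27, adjusted p = 3.04e-11 by limma), and *Il13* fell by 1.796 on the log2 scale. The lists were drawn up with earlier results of these data known, and no test of a list was made.

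**Figure D4:**
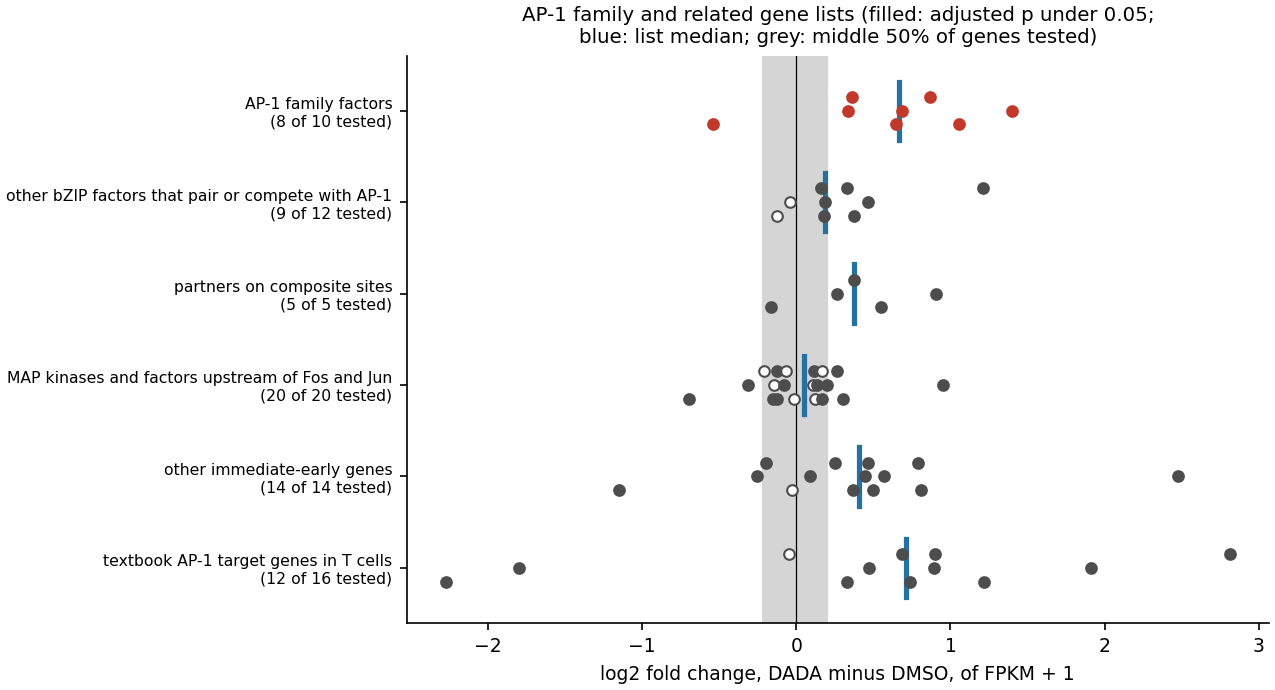
Log2 fold change, DADA minus DMSO, on the log2(FPKM + 1) scale (horizontal axis) of the AP-1 family and 5 related lists, with 1 point per gene tested. Filled points have an adjusted p-value under 0.05 (limma), the blue bar is the list median, and the grey band holds the middle 50% of genes tested. The medians run from 0.05 for the MAP kinase list to 0.71 for the target genes, 2 of which (*Il10*, *Il2*) passed the filter only through the DADA libraries, with 0.67 for the AP-1 family.

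The genes whose pattern over the 8 libraries was most like that of *Jun*, by the Euclidean distance of log2(FPKM + 1) centred on each gene's mean, were *Pstpip1* (distance 0.0980), *Pml* (0.1002) and *Smpd1* (0.121), against a median distance of 2.03 over all genes. Their log2 fold changes were 1.42, 1.40 and 1.35. Those most like *Fosl1* were *Fam83d* (0.133), *Tsen15* (0.181) and *Dipk1b* (0.229), against a median of 0.871, with log2 fold changes of -0.54, -0.53 and -0.50. All 8 libraries entered the distance, so likeness covers the difference between the groups as well as the spread within them.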

How the data were processed

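Bulk RNA-seq of 4 DMSO and 4 DADA libraries was analysed, grouped by their titles. The values are FPKM as deposited, 1 per gene row in each library. Reads were paired, of 150 bp. The submitters' processing notes name HISAT2 2.0.5 and StringTie 1.3.3, and the builds GRCm39 and GRCh38 without roles. The labels and the methods name different library kits. Rows with StringTie names (404) are assembled transcripts.

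FPKM holds no read counts, so no count test was run. Depth was estimated from the steps between values of up to 4 fragments in 3858 single-transcript genes of GENCODE M21, searched between 8000000 and 24000000 fragments. Between 45.5% and 53.5% of low values lay within 0.1 of a whole number, where chance gives 20%.

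Values were analysed as log2(FPKM + 1) for genes at 1 FPKM or more in at least 4 of 8 libraries, with limma 3.58.1 in R 4.3.3 (1 term for DADA, eBayes with trend, Benjamini-Hochberg over all genes tested, threshold 0.05). The fit was also run on simulated data in which few genes changed, so that run does not cover a change as broad as the one here. Single values were compared by exact permutation, two-sided, over the 70 ways to split the libraries (scipy 1.17.1). Named were the 10 members, every partner on composite sites, the 2 largest called rises and falls of each list, and the 3 genes nearest to the members with the largest called rise and fall. *Atf2*, *Jdp2*, *Nr4a2*, *Il2*, *Il21*, *Il4*, *Il5*, *Mmp9*, *Zbtb46*, *Xcr1*, *Flt3*, *Itgax*, *Siglech*, *Prdx2* and *Ccdc85b* fall outside this rule and were named after their values were seen. Members and lists were chosen with earlier results of these data known. The main fit did not pair libraries by replicate number. Alternatives were a pseudocount of 0.1, no filter, a mean of at least 5 FPKM, TPM, median-ratio and quantile scaling, no trend, the replicate number as a block, no assembled transcripts, and leaving out each library. Figures were drawn with matplotlib 3.10.9.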

Additional observations from a re-analysis of the deposited data

Results flagged for a closer look

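Dixon's ratio, the gap between an extreme library and its neighbour over the range of the group, singled out 1 library in 3 of 68 groups of 4, and chance gives about 1 in 20. *Fosb* reached 0.927 FPKM in DADA 4 while the remaining DADA libraries ran from 0.614 to 0.662 FPKM (ratio 0.845). *Il10* was low in DADA 1, at 6.60 FPKM, while the others under DADA ran from 7.95 to 8.19 FPKM (ratio 0.852). *Csf2* was low in DMSO 4, at 80.04 FPKM, while the others under DMSO ran from 83.9 to 84.5 FPKM (ratio 0.852). Each of these libraries stayed on its own side of the difference between DADA and DMSO.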

How the results depend on the processing

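The 8 AP-1 genes tested, the 5 partners and the 14 genes named from the lists gave 454 values under the 17 alternatives, and all 454 kept their direction and their side of the threshold. The 14 were picked for the largest called changes of their lists, so their kept calls say little about other genes. *Atf2*, which was not picked so, crossed the threshold in some fits, and counts of calls in the lists moved. The genes nearest to *Jun* and *Fosl1* and those named outside the rule are not among these 27, and *Fosb* and *Maf* were fitted only without the filter. All genes called numbered 7064, and 5741 (mean of at least 5 FPKM) to 7868 (no filter) under the alternatives. That stricter filter removes *Fos* and *Fosl1* and leaves 6 AP-1 genes, all higher, and without a filter 10 were called, 9 of them higher. The share of *Maf* in the summed FPKM, 0.00937 percentage points higher with DADA, turned to -0.00360 under quantile normalization. The cause was not tested. With the replicate number as a block, 6995 genes were called and all 8 AP-1 genes kept their calls. Deviations of same-numbered libraries correlated across genes at 0.0953, -0.120, -0.0877 and 0.0751. No DMSO library correlated best with its own number, and of the DADA libraries only DADA 1 did. These correlations cannot tell whether same-numbered cultures shared an animal or a batch. Leaving out single libraries gave 6700 to 6848 calls. Depth limits *Fosb* and *Maf* most, at about 8.8 to 65.0 fragments per library.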

Other observations

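*Il21*, a cytokine gene that MAF is known to activate, stayed below the filter and was singled out after its values were seen. It was at 0.0222, 0, 0 and 0.0683 FPKM in DMSO 1 to 4 and at 0.743, 0.542, 0.518 and 0.816 FPKM in DADA 1 to 4, so that the groups did not overlap. Since these values were seen first, no p-value is given. Of the genes that passed the filter, 60.6% did not overlap, 28.4% being higher under DADA. The share among genes below the filter was not computed. The other target genes below the filter, *Il4*, *Il5* and *Mmp9*, overlapped between the groups. *Zbtb46*, counted among the dendritic cell markers, fell from 4.11 ± 0.388 to 1.999 ± 0.278 FPKM (SD, n = 4 each; log2 fold change -0.77, adjusted p = 1.43e-05 by limma).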
